A study of Homo sapiens with 6 samples.

Results

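MET, the receptor for hepatocyte growth factor (HGF), was examined together with 9 genes of the same signalling system in HCT116 cells given Nutlin-3 or 5-fluorouracil (5FU). The 10 genes were MET, MST1R, HGF, GAB1, EGFR, ERBB2, ERBB3, IGF1R, INSR and AXL, and they were taken by name through the probe sets that the platform annotation assigns to that symbol and no other. They held 370 of the 1411399 probe sets on the array. Of these, 318 lay above the median of all probe-set means (4.73), which was the minimum for use, and each of the 10 genes kept at least 2 probe sets, so that 10 of the 17841 genes tested were members. HCT116 is an established human colorectal carcinoma line, written HCT116 +/+ in the sample titles, and RNA from whole cultures was hybridized to Affymetrix Human Exon 1.0 ST arrays. There were 3 groups of 2 arrays: controls (treatment "none" in the labels, DMSO in the design text), Nutlin-3 ("Nutlin 3R" in the labels) and 5FU, all collected after 12 h. The labels and the design text state no dose. Nutlin-3 keeps MDM2 from binding p53, and 5FU is a pyrimidine analogue that blocks thymidylate synthase. The series concerns genes that are synthetic lethal with Nutlin-3, of which MET is 1. The comparisons ask whether the transcript of MET or its relatives changed under either drug, within the precision of 2 arrays a group.

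Receptor tyrosine kinases are membrane proteins whose intracellular kinase is typically switched on when a ligand binds. The phosphorylated receptor then recruits adaptors such as GAB1, GRB2 and SHC1, which pass the signal to the RAS-ERK and PI3K-AKT pathways, and feedback proteins such as the Sprouty and dual-specificity phosphatase families limit it. In epithelial tumours MET drives invasive growth and survival, and p53 is known to lower MET through microRNAs of the miR-34 family.

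Values are deposited log2 levels averaged over the used probe sets of a gene, with SD and n = 2 per group. Because probe sets differ in brightness, levels are compared between arrays for 1 gene and not between genes. Probe sets of 1 gene are read on the same arrays and are not replicates. Counts of those higher or lower therefore describe a gene and are not tests. CDKN1A, the p53-induced inhibitor of cyclin-dependent kinases, was at 8.32 and 8.27 on the control arrays, 10.39 on both Nutlin-3 arrays and 10.12 and 10.03 on the 5FU arrays, and MDM2 rose likewise, by 1.86 and 1.57 on the log2 scale after Nutlin-3 and 5FU (limma, Benjamini-Hochberg adjusted p = 0.0099 and 0.0283). Array medians ranged from 4.73 to 4.78. Most probe sets were above the minimum for 11 of 12 colonic epithelial, 5 of 10 fibroblast, 3 of 5 endothelial and 2 of 5 blood marker genes. Among the fibroblast genes, LUM, POSTN, FAP, DCN and VIM had 0 of 10, 1 of 31, 3 of 32, 4 of 19 and 11 of 26 probe sets above it, while COL1A1, COL1A2, COL3A1, PDGFRB and THY1 had 59 of 61, 46 of 66, 43 of 66, 27 of 33 and 15 of 22. Differences between replicates ran in opposite directions in control and drug groups: across genes, replicate 1 minus replicate 2 correlated at -0.56 between control and Nutlin-3, at -0.52 between control and 5FU and at 0.63 between Nutlin-3 and 5FU.

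None of the 10 genes passed the test in any of the 3 comparisons. For Nutlin-3 against control limma called 0 of 10 at an adjusted p below 0.05, where 1.22% of all genes were called, and 0 of 10 had an unadjusted p below 0.05 (10.2% of all genes). For 5FU against control it called 0 of 10, with 0.448% of all genes called, and GAB1 alone had an unadjusted p below 0.05 (10.7% of all genes). For 5FU against Nutlin-3 it called 0 of 10, with 0.633% of all genes called, and 0 of 10 had an unadjusted p below 0.05 (13.3% of all genes). Median log2 differences of the 10 genes were 0.09, 0.03 and -0.04 in that order, beside 0.00062, 0.0014 and 0.0052 over all genes. Single differences lay between -0.21 and 0.36. The far ends of the 95% intervals, the largest changes in either direction that they include, corresponded to between 1.33-fold and 1.54-fold for Nutlin-3, between 1.27-fold and 1.67-fold for 5FU, and between 1.26-fold and 1.59-fold for 5FU against Nutlin-3. In RNA from whole cultures, fewer cells with a transcript and less of it per cell cannot be told apart.

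**Figure D1:**
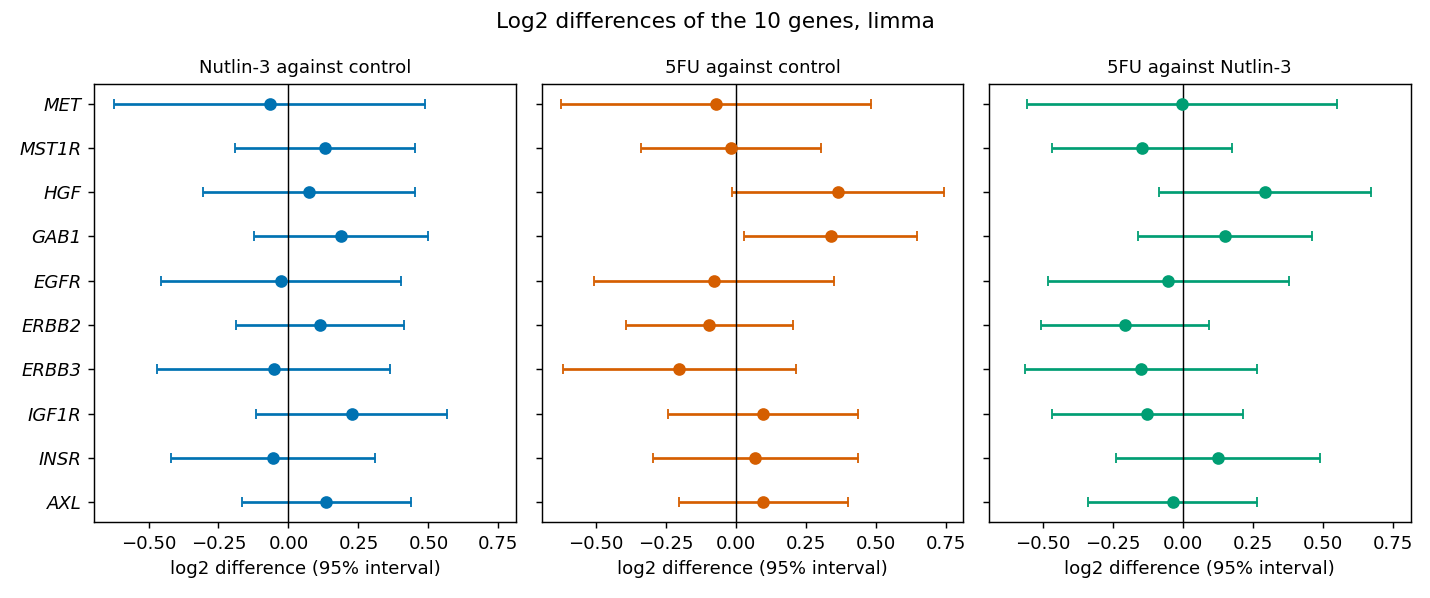
Log2 differences (horizontal axis) of the 10 genes in the 3 comparisons, with 95% intervals from limma on 2 arrays a group. The interval of GAB1 for 5FU against control (0.03 to 0.65) is the only 1 of the 30 that does not cross 0.

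MET was measured by 37 used probe sets of 40. Its level was 10.57 and 9.92 on the control arrays, 10.04 and 10.32 on the Nutlin-3 arrays and 10.06 and 10.29 on the 5FU arrays. The control arrays were the highest and the lowest of the 6, and all 4 drug arrays lay between them. The means were 10.25 ± 0.46 in control, 10.18 ± 0.20 after Nutlin-3 and 10.18 ± 0.17 after 5FU (SD, n = 2). MET therefore differed by -0.07 for Nutlin-3 (95% interval -0.62 to 0.49, limma adjusted p = 0.976), by -0.07 for 5FU (-0.63 to 0.48, adjusted p = 0.975) and by -0.003 between the drugs (-0.56 to 0.55, adjusted p = 0.996). The gap between the control arrays, 0.65, was larger than that of 92.6% of genes, and the residual SD of MET, 0.31, exceeded that of 85.7% of genes. The gap ran through the whole gene, since 37 of 37 probe sets were higher on control replicate 1 than on control replicate 2. Without control replicate 1, the differences from control became 0.26 for either drug, and without control replicate 2 they were -0.39 for Nutlin-3 and -0.40 for 5FU. No adjusted p of MET fell below 0.487 when 1 array was left out.

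**Figure D2:**
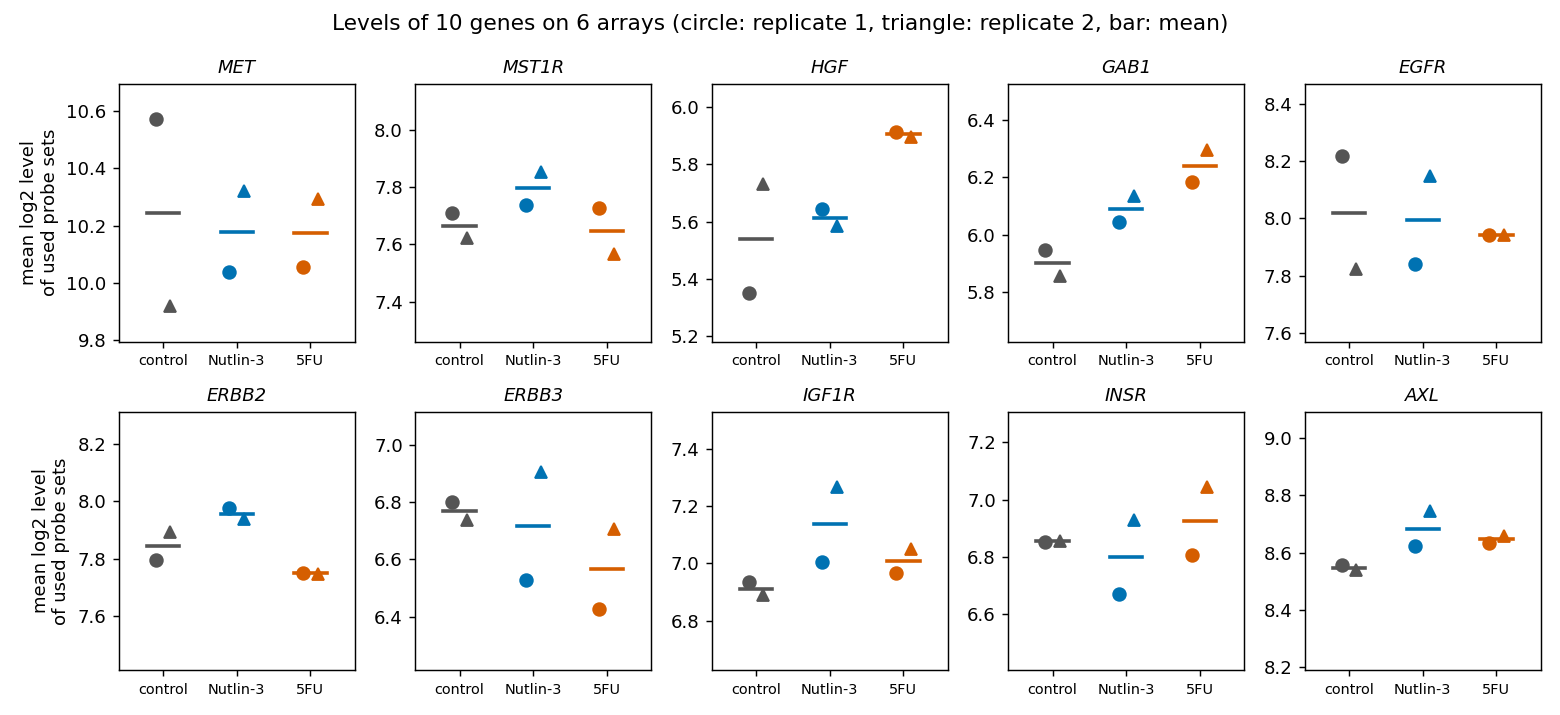
Mean log2 level of the used probe sets (vertical axis, each panel spanning the same log2 range) for the 10 genes on the 6 arrays, with the group mean as a bar. For MET the 2 control arrays (10.57 and 9.92) enclose the 4 drug arrays. For GAB1 the 3 groups do not overlap, but none of its differences passed the test. The order of the 2 drugs for GAB1 changed under other settings.

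Along MET, 26 of 37 probe sets were lower and 11 higher after Nutlin-3, and 28 were lower and 9 higher after 5FU. Probe set 3020381 departed most from the rest of the gene after 5FU. It read 5.95 and 5.14 in control, 4.12 and 6.37 after Nutlin-3 and 6.91 and 7.43 after 5FU, and was the dimmest of the used MET probe sets with a mean of 5.99. Its difference was 1.63 for 5FU against control (limma adjusted p = 0.775) and 1.92 for 5FU against Nutlin-3 (adjusted p = 0.584). Taken relative to the mean of MET on the same array it was 1.70 and 1.93 (limma adjusted p = 0.851 and 0.643). For Nutlin-3 the largest difference was in probe set 3020393, at 0.47 (adjusted p = 0.978), whose control arrays read 9.18 and 6.97. Limma called none of the MET probe sets, nor any of the 318 used probe sets of the 10 genes, in any comparison.

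**Figure D3:**
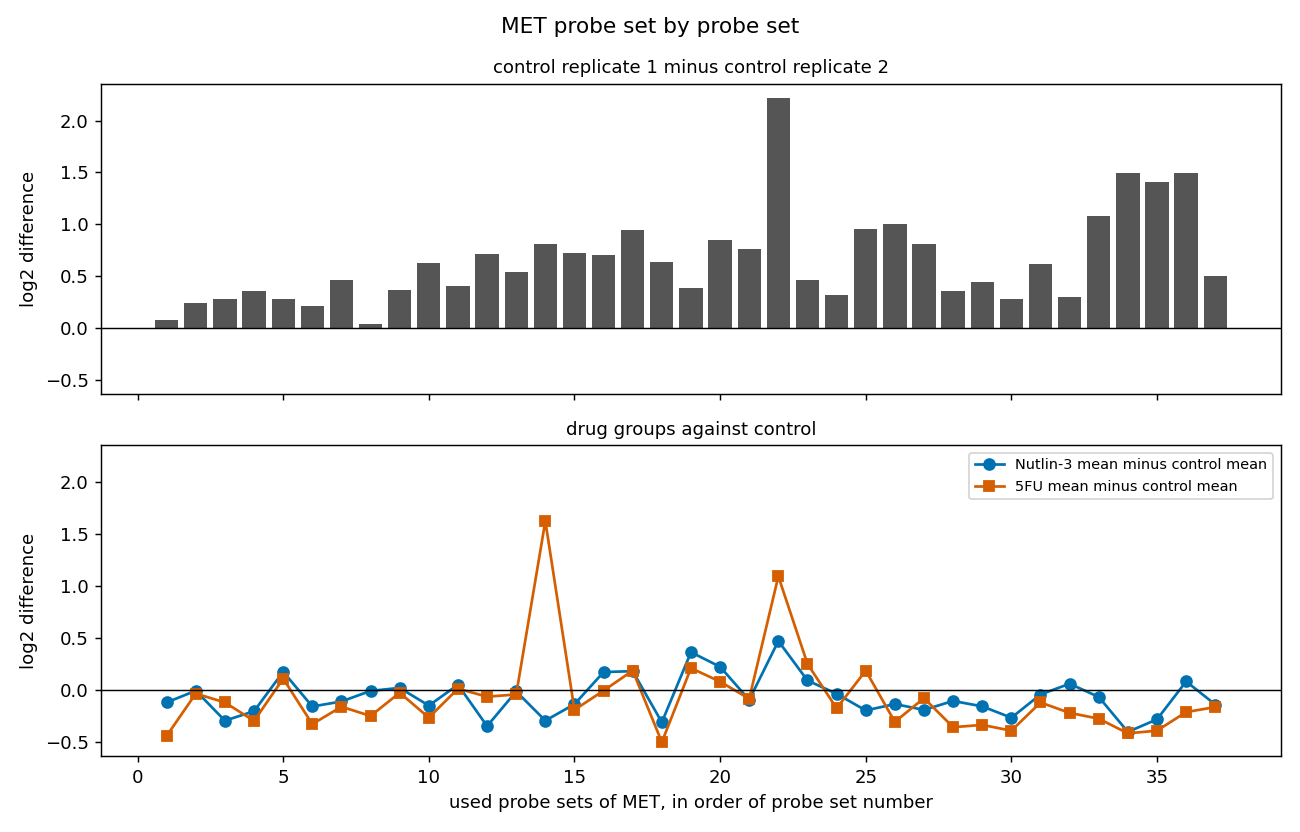
Log2 differences (vertical axis) at the 37 used probe sets of MET in order of probe set number (horizontal axis), between the 2 control arrays above and between drug and control means below. Every bar in the upper panel is above 0, and the high 5FU point of the lower panel (1.63) is probe set 3020381.

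The 250 bases before the annotated start of MET lie at chr7:116671946-116672195, plus strand, in GRCh38.p14 as given by RefSeq. They are shown with those of EGFR (chr7:55018767-55019016, plus strand). EGFR was chosen as the member whose level followed MET most closely (Pearson r = 0.91, n = 6 arrays that share their normalization). Capitals mark the GC box, the letters GGGCGG on either strand, the element bound by Sp1 factors.
MET: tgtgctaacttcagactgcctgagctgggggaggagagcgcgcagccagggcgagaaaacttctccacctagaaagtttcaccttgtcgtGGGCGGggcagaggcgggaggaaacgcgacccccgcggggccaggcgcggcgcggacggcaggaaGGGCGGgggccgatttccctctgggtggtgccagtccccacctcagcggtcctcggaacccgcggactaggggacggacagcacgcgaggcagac
EGFR: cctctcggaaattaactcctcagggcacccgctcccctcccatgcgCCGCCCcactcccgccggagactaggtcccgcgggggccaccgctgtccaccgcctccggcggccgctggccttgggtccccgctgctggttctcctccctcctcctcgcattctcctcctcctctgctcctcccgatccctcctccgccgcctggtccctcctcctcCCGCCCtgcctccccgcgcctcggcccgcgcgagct
In these windows MET has 2 GC boxes and EGFR 2, with 68.4% and 73.6% G and C. The window of the other EGFR start (chr7:55109589-55109838, plus strand) has 0 GC boxes and 38.8% G and C. A GC box stood in 42.6% of all 35116 RefSeq windows of this length and in 6 of the 10 windows of member genes, which cover 8 members (EGFR and AXL with 2 starts each). The p53 half-site, searched on both strands, was in 0 of the 10 member windows and in 5.57% of all windows. A missing match says only that these letters are not in the 250 bases.

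The miR-34a transcript was the only miR-34 member with used probe sets. MIR34A read 6.67 and 6.52 in control, 7.03 and 6.83 after Nutlin-3 and 7.16 and 6.79 after 5FU on 3 probe sets. The drug arrays were all above the control arrays, by 0.33 for Nutlin-3 (limma adjusted p = 0.613) and 0.38 for 5FU (adjusted p = 0.509), and neither difference passed the test. These probe sets read the transcript and not the mature microRNA, whose sequence is shown here because MET is a known target of it, with its seed (bases 2 to 8) in capitals as RefSeq gives it for GRCh38.p14, chr1:9151735-9151756, minus strand.
miR-34a-5p: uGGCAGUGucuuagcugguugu

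Among genes with at least 4 used probe sets, those whose levels over the 6 arrays were most like MET were ZMYM4 (Pearson r = 0.998), PPIL4 (r = 0.997) and WDR3 (r = 0.997), of 15990 genes searched. They had the same order of control arrays: ZMYM4 read 8.90 and 8.15 in control, and its 4 drug arrays lay between 8.28 and 8.62. In all, 580 genes had r above 0.9, so that the pattern of MET over these arrays was shared by many genes. The source of the gap between the control arrays was not tested.

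HGF, the ligand of MET, is made mainly by mesenchymal cells. Of its 24 probe sets 19 lay at or below the minimum for use. The mean over all 24 was between 3.35 and 3.53 on the 6 arrays, below the array medians. The 5 used probe sets read 5.35 and 5.73 in control, 5.64 and 5.58 after Nutlin-3 and 5.91 and 5.90 after 5FU. The 5FU arrays were the highest, by 0.36 over control (95% interval -0.01 to 0.74, limma adjusted p = 0.492) and by 0.29 over Nutlin-3 (adjusted p = 0.496). Nutlin-3 differed from control by 0.07, with overlapping arrays. Over all 24 probe sets the 5FU arrays read 3.53 and 3.47 and the highest array was 3.46 in control and 3.50 after Nutlin-3, so that the 5FU and Nutlin-3 arrays overlapped, while both 5FU arrays stayed above control. The difference from control was then 0.10 and that from Nutlin-3 0.06. On the used probe sets the difference from control was 0.17 without control replicate 1 and 0.56 without control replicate 2, and the median of the probe sets put 5FU above Nutlin-3 by 0.47.

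MST1R, also called RON, is the closest relative of MET and the receptor for macrophage-stimulating protein. It read 7.71 and 7.62 in control, 7.74 and 7.85 after Nutlin-3 and 7.73 and 7.57 after 5FU. The Nutlin-3 arrays were above the control arrays by a mean of 0.13 (95% interval -0.19 to 0.45, limma adjusted p = 0.867), with 25 of 29 used probe sets higher, and by 0.21 with the median of the probe sets. The 5FU and control arrays overlapped (difference -0.02, adjusted p = 0.991). Its probe set 2674938 was lower after 5FU than after Nutlin-3 by 0.75 (7.85 and 8.13 against 8.80 and 8.68, adjusted p = 0.552).

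GAB1, the docking protein that binds MET directly and carries its signal to SHP2 and PI3K, was the member with the smallest unadjusted p. It read 5.95 and 5.86 in control, 6.05 and 6.13 after Nutlin-3 and 6.18 and 6.30 after 5FU. The 3 groups did not overlap, with control lowest and 5FU highest. The difference from control was 0.34 for 5FU (95% interval 0.03 to 0.65, limma unadjusted p = 0.0361, adjusted p = 0.417) and 0.19 for Nutlin-3 (-0.12 to 0.50, adjusted p = 0.771). After 5FU 14 of its 15 used probe sets were higher than in control and 1 was lower. Its largest single differences were 1.14 in probe set 2745606 for Nutlin-3 (adjusted p = 0.688) and 0.88 in probe set 2745622 for 5FU (adjusted p = 0.79), on probe sets with means of 5.19 and 5.85. Restricted to upper-quartile probe sets, GAB1 differed from control by 0.07 after 5FU (adjusted p = 0.951), and with the median of the probe sets by 0.50 after Nutlin-3 (adjusted p = 0.51). The difference between the drugs, 0.15, changed sign under both settings, to -0.17 and -0.13.

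Across the 10 genes, groups did not overlap for 5 after Nutlin-3 (34.2% of all genes), for 6 after 5FU (38% of all genes) and for 4 between the drugs (46% of all genes). The 5 that separated Nutlin-3 from control were MST1R, GAB1, ERBB2, IGF1R and AXL, all with higher Nutlin-3 arrays. Of the 6 that separated 5FU from control, HGF, GAB1, IGF1R and AXL were higher and ERBB2 and ERBB3 lower after 5FU. Both comparisons share the control arrays.

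EGFR, the receptor for EGF, TGF-alpha and related ligands, read 8.22 and 7.82 in control, 7.84 and 8.15 after Nutlin-3 and 7.94 and 7.94 after 5FU. As with MET, the control arrays were the highest and the lowest of the 6. The difference was -0.03 for Nutlin-3 (95% interval -0.46 to 0.40, limma adjusted p = 0.989) and -0.08 for 5FU (-0.51 to 0.35, adjusted p = 0.966). Without control replicate 1 these became 0.17 and 0.12, and without control replicate 2 they were -0.22 and -0.28. Probe set 3002769 of EGFR was above both control arrays on all 4 drug arrays (5.24 and 5.31 in control, 6.11 and 5.81 after Nutlin-3, 5.97 and 6.32 after 5FU), and neither difference passed the test (0.68, adjusted p = 0.752, and 0.87, adjusted p = 0.625).

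ERBB2, the receptor without a known ligand that pairs with the other ERBB proteins, had the smallest residual SD of the 10 genes, 0.04. It read 7.79 and 7.89 in control, 7.98 and 7.94 after Nutlin-3 and 7.75 and 7.75 after 5FU. The groups did not overlap, with 5FU lowest and Nutlin-3 highest. The difference between the drugs was -0.21 for 5FU against Nutlin-3 (95% interval -0.51 to 0.09, limma adjusted p = 0.544), and 43 of 51 used probe sets were lower after 5FU. Against control it differed by 0.11 for Nutlin-3 (adjusted p = 0.881) and by -0.09 for 5FU (adjusted p = 0.915).

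ERBB3, a receptor with a weak kinase that signals to PI3K by pairing with ERBB2, read 6.80 and 6.74 in control, 6.53 and 6.90 after Nutlin-3 and 6.43 and 6.71 after 5FU. The Nutlin-3 arrays lay on both sides of control, and both 5FU arrays lay below it, by 0.20 in the mean (difference -0.20, 95% interval -0.62 to 0.21, limma adjusted p = 0.825). After 5FU 30 of 37 used probe sets were lower than in control, and with all 45 probe sets the difference was -0.13. The difference for Nutlin-3, -0.05, changed sign with all probe sets of the gene (0.03) and with the median of the used ones (0.0074).

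IGF1R and INSR, the receptors for insulin-like growth factors and insulin, belong to the same receptor family. IGF1R read 6.93 and 6.89 in control, 7.01 and 7.27 after Nutlin-3 and 6.97 and 7.05 after 5FU, so that all drug arrays were above both controls. The difference was 0.23 for Nutlin-3 (95% interval -0.11 to 0.57, limma adjusted p = 0.728) and 0.10 for 5FU (adjusted p = 0.929). Leaving out Nutlin-3 replicate 2 lowered the Nutlin-3 difference to 0.09, and leaving out Nutlin-3 replicate 1 raised it to 0.36. Of its 43 used probe sets 35 were higher after Nutlin-3. The largest single difference was 1.20 in probe set 3610900, which read 6.06 and 6.93 in control, 7.63 and 7.76 after Nutlin-3 and 7.62 and 7.52 after 5FU (adjusted p = 0.495 for Nutlin-3).

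INSR read 6.85 and 6.85 in control, 6.67 and 6.93 after Nutlin-3 and 6.81 and 7.04 after 5FU, and the drug arrays lay on both sides of control. It differed by -0.06 for Nutlin-3 (limma adjusted p = 0.965) and by 0.07 for 5FU (adjusted p = 0.963). For 5FU against Nutlin-3, probe set 3848255 had the largest difference of the used INSR probe sets, and it was not called. It read 6.21 and 6.27 in control, 6.55 and 6.35 after Nutlin-3 and 5.60 and 5.49 after 5FU. The difference was -0.91 (limma adjusted p = 0.437), or -1.03 relative to the mean of INSR (adjusted p = 0.578).

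AXL, the receptor for GAS6 that is linked to invasion and drug tolerance, read 8.56 and 8.54 in control, 8.62 and 8.74 after Nutlin-3 and 8.63 and 8.66 after 5FU. All drug arrays were above both controls by small amounts, 0.14 for Nutlin-3 (95% interval -0.17 to 0.44, limma adjusted p = 0.843) and 0.10 for 5FU (-0.20 to 0.40, adjusted p = 0.914). Its range over the 6 arrays, 0.21, was the narrowest of the 10 genes.

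Taken probe set by probe set, the 10 genes are set beside all used probe sets, with or without a gene symbol. Probe sets of 1 gene share their arrays, so these shares describe the probe sets and are not tests of the 10 genes. Limma called 0 of 318 used probe sets in each comparison, beside 0% of all used probe sets for either drug against control and 0.00142% for 5FU against Nutlin-3. An unadjusted p below 0.05 was reached by 7 for Nutlin-3 (6.14% of all used probe sets), 11 for 5FU (6.27%) and 15 between the drugs (7.39%), or 2.20%, 3.46% and 4.72% of the 318. Groups did not overlap for 75, 120 and 126 of them, or 23.6%, 37.7% and 39.6%, against 32.2%, 35.2% and 38% of all used probe sets. Relative to the mean of their gene, 0 were called in each comparison (0% of 263542 probe sets in each). An unadjusted p below 0.05 was then reached by 8, 13 and 8 of the 318 (5.04%, 5.34% and 6.62% of all). The 95% interval of a single member probe set reached 0.63 to either side in the median, against 0.35 for a member gene.

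The other genes of the pathway were read from lists by role, and 116 of 130 listed genes were measured. After Nutlin-3 limma called 0 of 116, with 1.22% of all genes called, and 16 had an unadjusted p below 0.05 (10.2% of all genes). After 5FU it called 3 of 116, all higher, with 0.448% of all genes called, and 21 had an unadjusted p below 0.05 (10.7% of all genes). Between the drugs it called 2, both higher after 5FU, with 0.633% of all genes called, and 19 had an unadjusted p below 0.05 (13.3% of all genes). The genes called were the EGFR ligands HBEGF and TGFA, the transcription factor STAT3 and the receptor-like kinase STYK1.

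**Figure D4:**
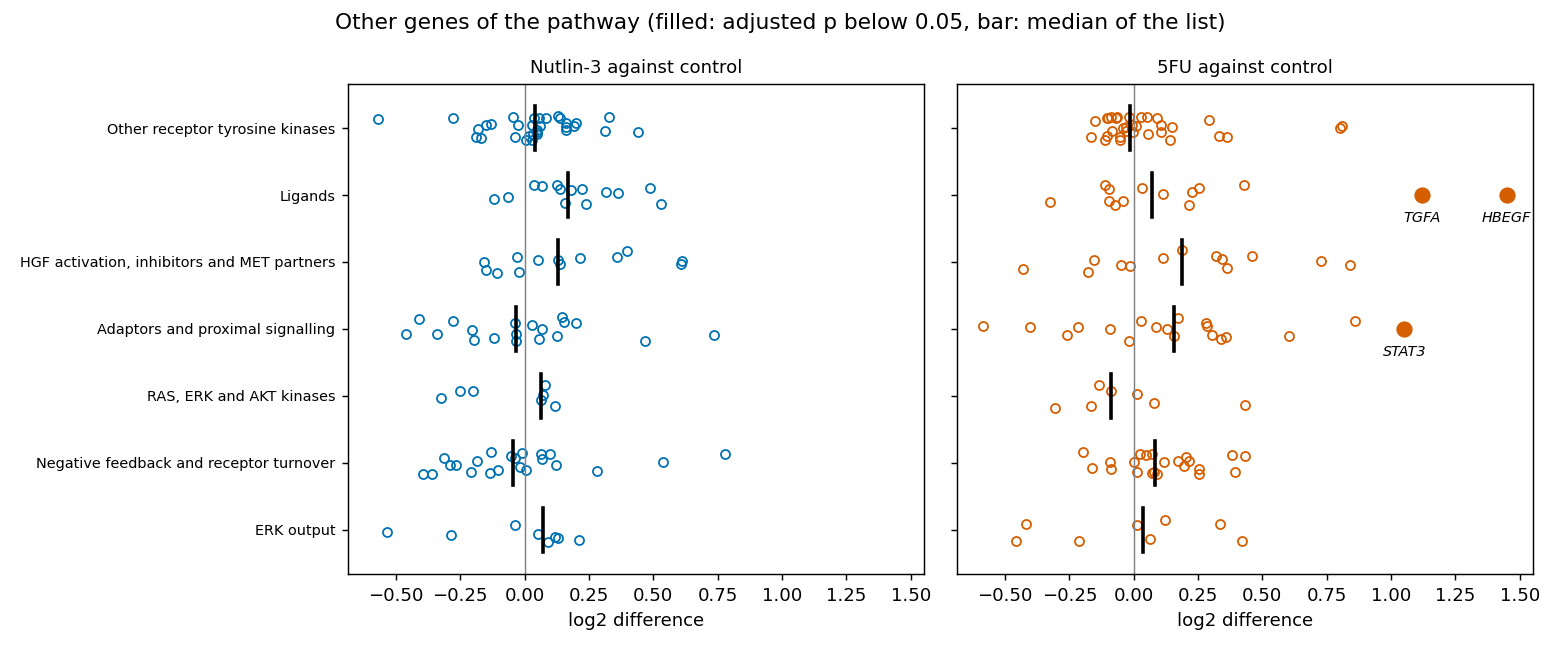
Log2 differences (horizontal axis) of the measured genes of 7 pathway lists after Nutlin-3 and after 5FU, with the list median as a bar and called genes filled. HBEGF (1.45), TGFA (1.12) and STAT3 (1.05) are called after 5FU, and no gene is called after Nutlin-3.

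HBEGF, the heparin-binding ligand of EGFR and ERBB4, rose after 5FU. It read 7.17 and 7.03 in control, 7.59 and 7.58 after Nutlin-3 and 8.48 and 8.62 after 5FU, with no overlap between the 3 groups. The rise over control was 2.73-fold (log2 1.45, 95% interval 1.13 to 1.77, limma adjusted p = 0.0225), and the level after 5FU was also 1.95-fold higher than after Nutlin-3 (adjusted p = 0.0417). Nutlin-3 differed from control by 0.49 (adjusted p = 0.219). The difference from control stayed between 1.37 and 1.52 with any 1 array left out. Its call was lost without control replicate 1, control replicate 2, 5FU replicate 1 or 5FU replicate 2, and with the median of probe sets (adjusted p = 0.059). The call against Nutlin-3 was lost without any 1 of the 6 arrays, with the median of probe sets, with centred arrays and with only those groups fitted (adjusted p between 0.0518 and 0.403 with 1 array left out).

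TGFA, another EGFR ligand, read 7.83 and 7.54 in control, 8.13 and 8.30 after Nutlin-3 and 8.73 and 8.88 after 5FU. The 3 groups did not overlap. It rose 2.17-fold after 5FU (log2 1.12, 95% interval 0.75 to 1.49, limma adjusted p = 0.0451), and differed by 0.53 for Nutlin-3 (adjusted p = 0.265) and by 0.59 between the drugs (adjusted p = 0.183). The 250 bases before the start of HBEGF (chr5:140346604-140346853, minus strand) and before the start of TGFA that lies farther upstream (chr2:70553827-70554076, minus strand), again with GC boxes in capitals, are shown because both ligands rose after 5FU.
HBEGF: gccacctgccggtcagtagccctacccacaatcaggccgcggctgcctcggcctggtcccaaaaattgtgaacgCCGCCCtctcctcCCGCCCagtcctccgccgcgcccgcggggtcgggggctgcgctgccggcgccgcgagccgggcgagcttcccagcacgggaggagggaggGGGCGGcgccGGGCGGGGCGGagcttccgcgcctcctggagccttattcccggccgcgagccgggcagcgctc
TGFA: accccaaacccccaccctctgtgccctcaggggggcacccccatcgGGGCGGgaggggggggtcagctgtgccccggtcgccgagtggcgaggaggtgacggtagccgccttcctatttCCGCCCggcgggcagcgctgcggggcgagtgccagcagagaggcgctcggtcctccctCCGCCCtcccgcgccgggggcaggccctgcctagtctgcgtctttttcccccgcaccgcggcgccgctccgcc
In these windows HBEGF has 5 GC boxes and TGFA 3, and the p53 half-site was in neither window. The window of the other TGFA start (chr2:70553447-70553696, minus strand) has 0 GC boxes. That of STAT3, also called after 5FU, has 2. A GC box stood in 42.6% of all windows of this length, and a link between GC boxes and the rise after 5FU was not tested.

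STAT3, which receptor kinases and cytokine receptors activate, read 8.67 and 8.57 in control, 9.24 and 9.46 after Nutlin-3 and 9.57 and 9.77 after 5FU. It rose 2.07-fold after 5FU (log2 1.05, limma adjusted p = 0.0451) and differed by 0.74 after Nutlin-3, where it did not pass (adjusted p = 0.0865) but passed with upper-quartile probe sets (adjusted p = 0.0375) or with their median (adjusted p = 0.0403). The calls of TGFA and STAT3 after 5FU were lost without any 1 of the 6 arrays, while the differences stayed between 0.98 and 1.27 and between 0.95 and 1.15. Both also missed the threshold with all probe sets, with centred arrays, with trend and robust variances or with only those groups fitted (adjusted p between 0.0511 and 0.0886). With the median of probe sets TGFA missed it too (limma adjusted p = 0.0856), while STAT3 passed (adjusted p = 0.0454). STYK1, a receptor-like kinase, read 5.69 and 5.72 in control, 5.51 and 5.57 after Nutlin-3 and 6.41 and 6.62 after 5FU. It was 1.97-fold higher after 5FU than after Nutlin-3 (limma adjusted p = 0.0417), and differed from control by 0.81 after 5FU (adjusted p = 0.0811). The call was lost without any 1 array, with all probe sets, with their median, with centred arrays and with only those groups fitted, and upper-quartile probe sets lowered the difference to 0.49 from Nutlin-3 and to 0.24 from control (adjusted p = 0.164 and 0.629).

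**Figure D5:**
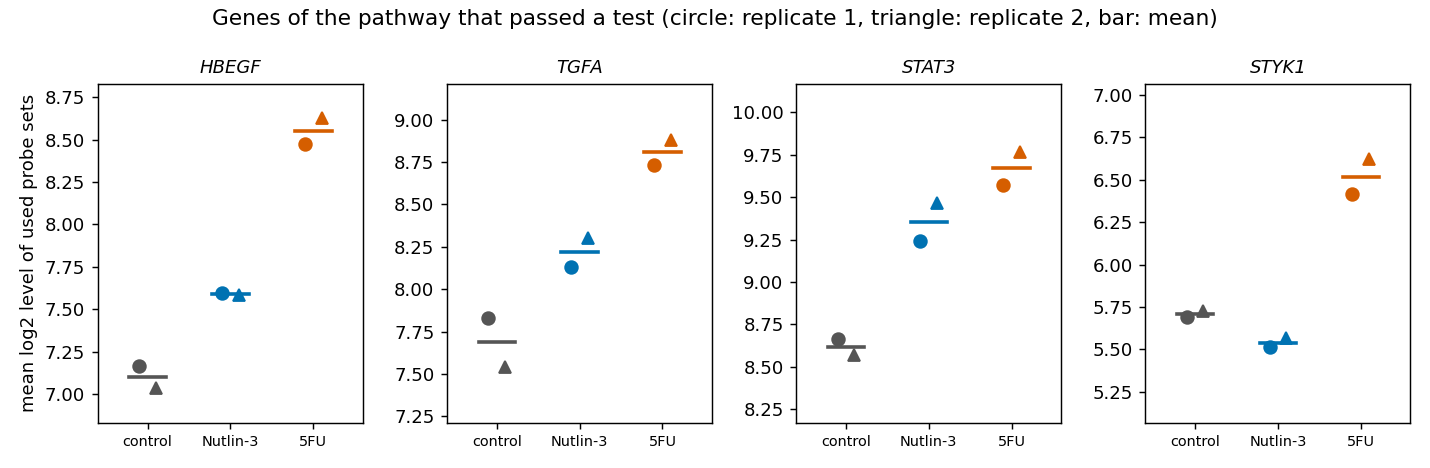
Mean log2 level (vertical axis, each panel spanning the same log2 range) of HBEGF, TGFA, STAT3 and STYK1 on the 6 arrays, with group means as bars. For each gene the 2 5FU arrays lie above the other 4, and for the first 3 the Nutlin-3 arrays lie between control and 5FU.

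After Nutlin-3 the largest differences in the lists did not pass the test. Among 32 other receptor tyrosine kinases (median 0.04) TYRO3, a relative of AXL, differed by -0.57 and the collagen receptor DDR1 by 0.44. Among 13 genes for HGF activation, its inhibitors and MET partners (median 0.13), the integrin subunit ITGB4 and the semaphorin receptor PLXNB1, both known to associate with MET, each differed by 0.61 (limma adjusted p = 0.103 and 0.105). Of 19 adaptors (median -0.03) SHC1 differed by 0.47. Of 22 feedback and turnover genes (median -0.04) the Sprouty gene SPRY1 differed by 0.78 and the ubiquitin ligase CBLB by 0.54. In the list of RAS, ERK and AKT kinases, of which 7 were measured, MAP2K1 differed by -0.33 and PDPK1 by -0.25. Of 8 ERK output genes EGR1 differed by -0.53 and ETV5 by -0.29. The 14 ligands had a median of 0.17, with 12 of 14 above 0 and 0 called. Those above 0 were 8 of 14 after 5FU and 6 of 14 for 5FU against Nutlin-3.

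After 5FU the same lists had medians of -0.01 for other receptor tyrosine kinases, 0.07 for ligands, 0.19 for HGF activation and MET partners, 0.16 for adaptors, -0.09 for the kinases, 0.08 for feedback and 0.04 for ERK output. MERTK, the third receptor of the AXL family, differed by 0.80. The urokinase gene PLAU, whose product can activate HGF, differed by 0.84, and its receptor PLAUR by 0.73 (limma adjusted p = 0.0869 and 0.107). The adaptor FRS2 differed by 0.86, HRAS by 0.43, AKT1 by -0.31, the ERK phosphatase DUSP5 by 0.43, SPRY1 by 0.39, MYC by -0.46 and IER3 by 0.42. None of these passed.

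Between the drugs, PLAUR was higher by 0.75 and ITGB4 lower by 0.66 (difference -0.66) after 5FU (limma adjusted p = 0.0795 and 0.0984), which missed the threshold. Differences for 5FU against Nutlin-3 were 0.81 for FRS2, 0.54 for CRKL, 0.54 for the ubiquitin ligase CBL, 0.51 for SOCS3, 0.49 for MERTK, 0.40 for MAP2K1, 0.32 for HRAS, -0.58 for MYC and 0.37 for FOSL1. None of these passed either. This comparison shares its 5FU arrays with that of 5FU against control.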

How the data were processed

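The deposited table holds log2 expression values per probe set for 6 arrays, with 0 missing values, and RMA (background correction, normalization between arrays, summary on a log2 scale) is named in the submitters' processing notes; no source used here names its version, its settings or a genome build. Gene names came from the platform annotation, which gave 1 symbol to 357604, several to 15322 and none to 1038473. Of 19560 symbols, 2966 were updated through a unique synonym in RefSeq's GRCh38.p14 table and 122 were kept unmatched.

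A gene's value was the mean of its probe sets above the median, with at least 2. The 3 groups were fitted together in limma 3.58.1 (R 4.3.3; lmFit, eBayes, 3 residual degrees of freedom), with Benjamini-Hochberg adjustment over all 17841 genes, all 705699 used probe sets, or all 263542 used probe sets minus their gene's mean (genes with at least 4). An exact two-sided permutation test of 2 against 2 arrays has a smallest p of 0.333, and the calls therefore depend on limma's pooling of variance across features.

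RMA values carry no counts or detection calls, so the number of arrays limits precision. Named were the 10 members, called genes of each list, the 2 largest differences per list and comparison, and the 3 genes most like MET; single probe sets beyond the largest of each gene were chosen after their values were seen. Members and lists were chosen with earlier results of these data known. Nothing in the labels makes the replicates separate cultures, so the p-values reflect the spread of these 6 samples, and that spread may be technical. The alternatives tried were other probe-set filters and summaries, other scalings, other variance models, the replicate number as a block, fewer groups and each array left out.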

Additional observations from a re-analysis of the deposited data

How the results depend on the processing

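In 477 fits of a member under 16 alternative settings, 0 had an adjusted p below 0.05 (the lowest was 0.0702); HGF had fewer than 2 upper-quartile probe sets and was not fitted there. Member probe sets called stayed at 0 under every setting run, alone and relative to their gene.

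Differences near 0 changed sign. With all probe sets of a gene, ERBB3 for Nutlin-3 was 0.0299 and MET between the drugs 0.0095, and with centred arrays MET was 0.0059. With the median of probe sets HGF for Nutlin-3 was -0.0406, ERBB3 0.0074 and GAB1 between the drugs -0.13, and with upper-quartile probe sets GAB1 was -0.17. With 1 array left out, Nutlin-3 against control ranged from -0.39 to 0.26 for MET, -0.12 to 0.26 for HGF, -0.22 to 0.17 for EGFR, -0.24 to 0.14 for ERBB3 and -0.18 to 0.0733 for INSR. For 5FU against control the ranges were -0.40 to 0.26 for MET, -0.10 to 0.0628 for MST1R, -0.28 to 0.12 for EGFR and -0.0488 to 0.19 for INSR. Between the drugs they were -0.14 to 0.14 for MET, -0.205 to 0.10 for EGFR, -0.34 to 0.0371 for ERBB3, -0.26 to 0.0038 for IGF1R, -0.0035 to 0.25 for INSR and -0.10 to 0.0229 for AXL.

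Counts are given for Nutlin-3 against control, 5FU against control and 5FU against Nutlin-3 in that order. All genes called (217, 80 and 113) became 380, 151 and 234 with upper-quartile probe sets and 127, 14 and 37 with centred arrays. With the median of probe sets they became 39 for 5FU against control and 69 between the drugs, where all probe sets also gave 69. With 1 array left out they ranged from 5 to 149, 1 to 63 and 3 to 104. Pathway genes called (0, 3 and 2) were 2 for Nutlin-3 with upper-quartile probe sets, and 1, 1 and 0 with the median of probe sets. For 5FU against control and between the drugs they were 1 and 1 with all probe sets, 1 and 0 with centred arrays and 1 and 0 with only the groups compared, and 5FU against control gave 1 with trend and robust variances. With 1 array left out the ranges were 0 to 0, 0 to 1 and 0 to 0. Probe sets called (0, 0 and 10) were 1531, 167 and 630 in the upper quartile and 2696, 829 and 1606 with trend and robust variances. After another quantile normalization they were 22 for Nutlin-3 and 21 between the drugs, where no filter or centred arrays gave 0, and 1 array left out gave 0 to 0, 0 to 1 and 0 to 1. Relative to their gene, 2 were called between the drugs with trend and robust variances. The cause was not tested.

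Replicate differences ran opposite between control and each drug (correlations -0.56 and -0.52) and together between the drugs (0.63), so the numbers were not taken as pairs across all 3 groups. With the replicate block, genes called were 2, 1 and 0, pathway genes 0 in each, and probe sets between the drugs 0, so that the calls of HBEGF, TGFA, STAT3 and STYK1 were lost. Crossing the replicate numbers, an alternative added once the data had been seen, gave 1788, 1882 and 2821 genes, 13, 19 and 24 of them in the pathway lists, and 0 members.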
